A study of Mus musculus with 8 samples.

Results

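The EGF family and its receptors were followed in cultured cardiac fibroblasts by 10 genes: the ligands Areg, Ereg, Hbegf, Btc, Tgfa, Epgn and Nrg1, and the receptors Egfr, Erbb2 and Erbb3. They were picked by their symbols from the 22274 genes of the deposited table, in which they filled 11 rows, since Nrg1 stood under a pair of identifiers, of which ENSMUSG00000118541 had no read in any library. RNA came from primary murine cardiac fibroblasts, the matrix-producing cells of the heart, and all 8 libraries were made from cells given TGF-β, the cytokine that turns fibroblasts into contractile myofibroblasts, at 5 ng/ml for 24 h. The 4 libraries labelled GFP received the empty vector (Ad-EV) and the 4 labelled OEIRF7 received a vector for the transcription factor IRF7 (Ad-IRF7). No library without TGF-β was part of the comparison. The sources name no genotype, strain or age for these cells, nor which libraries came from separate cultures or animals. A legend speaks of 3 biological replicates, whereas 4 libraries per group were in the table and were used, so the p-values measure the spread between these libraries, which may be technical.

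Members of the EGF family are made as membrane-anchored precursors, and ADAM metalloproteases cut them free. Amphiregulin (Areg), epiregulin (Ereg), HB-EGF (Hbegf), betacellulin (Btc), TGF-α (Tgfa) and epigen (Epgn) bind EGFR, while neuregulin (Nrg1) binds ErbB3 and ErbB4. Ligand binding lets receptors pair and phosphorylate each other, which feeds the RAS-MAPK and PI3K-AKT cascades. ErbB2 has no known ligand of its own and acts as a partner, and ErbB3 has little kinase activity and signals through its partner. In the heart the family is best known for neuregulin acting on ErbB2 and ErbB4 of cardiomyocytes and for HB-EGF in valve formation.

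Of the ligands, 4 sit next to each other on chromosome 5, and Areg and Btc among them had the largest fold differences of the members, so start regions of this group are shown together with that of Erbb2, whose window alone held a match to an interferon regulatory factor core. Of the 10 genes, 6 had a start region in the RefSeq promoter table for GRCm38.p6 (Epgn, Areg, Btc, Tgfa, Egfr and Erbb2), while Ereg, Hbegf, Nrg1 and Erbb3 were not in it. Each window runs from 250 bases before the RefSeq start to 50 bases after it, 5′ to 3′ on the gene's strand. Positions are counted from that start, which for Epgn and Erbb2 lies downstream of the gene start given below. Capitals mark matches, on either strand, to the AP-1 site (TGANTCA), the cAMP response element (CRE, TGACGTCA), the core of interferon regulatory factor sites (GAAANNGAA) and the TATA box (TATAAA). No motif match overlapped another. The windows are Epgn at chr5:91027267-91027566 (+), Areg at chr5:91139349-91139648 (+), Btc at chr5:91402945-91403244 (-) and Erbb2 at chr11:98412234-98412533 (+).
Epgn: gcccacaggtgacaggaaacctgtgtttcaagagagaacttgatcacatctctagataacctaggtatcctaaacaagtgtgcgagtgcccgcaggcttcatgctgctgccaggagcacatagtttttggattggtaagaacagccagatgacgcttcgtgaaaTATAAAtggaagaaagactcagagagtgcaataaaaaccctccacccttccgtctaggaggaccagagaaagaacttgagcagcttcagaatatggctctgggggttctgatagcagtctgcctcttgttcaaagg
Areg: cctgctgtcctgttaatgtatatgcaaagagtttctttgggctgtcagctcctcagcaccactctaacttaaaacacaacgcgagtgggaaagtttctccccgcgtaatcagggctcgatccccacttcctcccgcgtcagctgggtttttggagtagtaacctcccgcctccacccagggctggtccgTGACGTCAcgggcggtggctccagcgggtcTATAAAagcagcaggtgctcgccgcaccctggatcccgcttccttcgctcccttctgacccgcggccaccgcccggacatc
Btc: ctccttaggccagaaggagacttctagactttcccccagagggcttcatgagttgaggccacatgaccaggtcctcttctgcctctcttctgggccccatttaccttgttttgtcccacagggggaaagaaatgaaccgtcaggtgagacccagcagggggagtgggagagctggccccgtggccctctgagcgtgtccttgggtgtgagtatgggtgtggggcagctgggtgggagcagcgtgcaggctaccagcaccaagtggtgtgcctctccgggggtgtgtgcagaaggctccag
Erbb2: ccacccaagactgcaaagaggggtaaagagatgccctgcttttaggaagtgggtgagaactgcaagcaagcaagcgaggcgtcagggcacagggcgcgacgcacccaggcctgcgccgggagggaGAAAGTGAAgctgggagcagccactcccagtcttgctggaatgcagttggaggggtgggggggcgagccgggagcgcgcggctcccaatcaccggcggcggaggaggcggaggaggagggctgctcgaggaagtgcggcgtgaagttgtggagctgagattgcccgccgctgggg

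The Areg window held a CRE from 61 to 54 bases before the start and a TATA box from 31 to 26 bases before it. A CRE was found in 1.79% of the 32851 promoters of the table and a TATA box in 13.6%. Epgn held a TATA box from 86 to 81 bases before the start. Erbb2 held the interferon regulatory factor core, as GAAAGTGAA, from 125 to 117 bases before the start, and 8.56% of promoters held this core. Btc, Egfr and Tgfa held none of the 4 motifs, and no member's window held the AP-1 site, which 7.81% of promoters had. These are matches of letters in 300-base windows and say nothing of binding.

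Total counts per library were 24888589 to 27095611 in GFP and 24454801 to 28658826 in OEIRF7, and replicates of a group differed by more than sampling noise. Counts of the mouse Irf7 gene were 2861, 3680, 2272 and 3291 in the libraries labelled GFP and 385, 421, 380 and 404 in those labelled OEIRF7, a log2 fold change of -2.96 (SE 0.12). The reagent list of the study names a human IRF7 under the CMV promoter for the adenoviral vector, which the paper gives for these cells. The counts are of mouse genes, so with that vector the mouse gene does not check the labels. The list also holds an adeno-associated virus with mouse Irf7, and the deposited text names this type of virus. With that virus the mouse gene would bear on the labels, and its counts were lower, not higher, in the libraries labelled OEIRF7. Swapped labels would reverse every direction below. Whether the labels are right was not tested, and every direction below is that of the labels. Fibroblast markers were high in all libraries, with summed levels of 3044 to 3213 FPKM (a level normalised for gene length and library size) in GFP and 2669 to 2807 in OEIRF7. Of 10 markers 1 was higher (29.0% of all tested genes were), 6 were lower (29.9% of all) and 3 were not called. Of the lower genes 1 differed by more than 2-fold, Tcf21, at a log2 fold change of -1.33. Its mean was 44.9 ± 4.79 FPKM in GFP and 18.2 ± 2.85 FPKM in OEIRF7 (SD, n = 4 each). In bulk RNA, fewer cells of a type and less RNA per cell cannot be told apart.

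Amphiregulin, betacellulin and HB-EGF were more than 2-fold higher in the libraries labelled OEIRF7 than in those labelled GFP, epiregulin and EGFR were higher by less than 2-fold, and ErbB2 was slightly higher. TGF-α, neuregulin and ErbB3 were not called, and epigen was too rare to test. Counts were compared gene by gene with edgeR's quasi-likelihood test and Benjamini-Hochberg adjustment over 13533 genes, and a gene was called at an adjusted p under 0.05. Of the 11 rows 9 were tested, and 6 of these were called higher, against 29.0% of all tested genes. None was called lower, against 29.9% of all tested genes, although at an unadjusted p under 0.05 edgeR had 1 lower, Nrg1. DESeq2 and limma on log2 FPKM also called 0 of them lower. With the replicate number as a block, edgeR called 1 lower, Nrg1 (adjusted p = 0.0169). More than 2-fold higher were 3 of the 9, against 4.66% of all tested genes. In 6 of the 9 the lowest OEIRF7 library was above the highest GFP library, against 26.8% of all tested genes. Areg passed the filter on low counts only through OEIRF7 and so had to differ. Of the other 8 tested genes 5 were called higher, 2 of them by more than 2-fold, and 5 had groups that did not overlap. The median log2 fold change of these 8 was 0.48, and with Areg 0.75, beside 0.0015 over all tested genes.

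**Figure D1:**
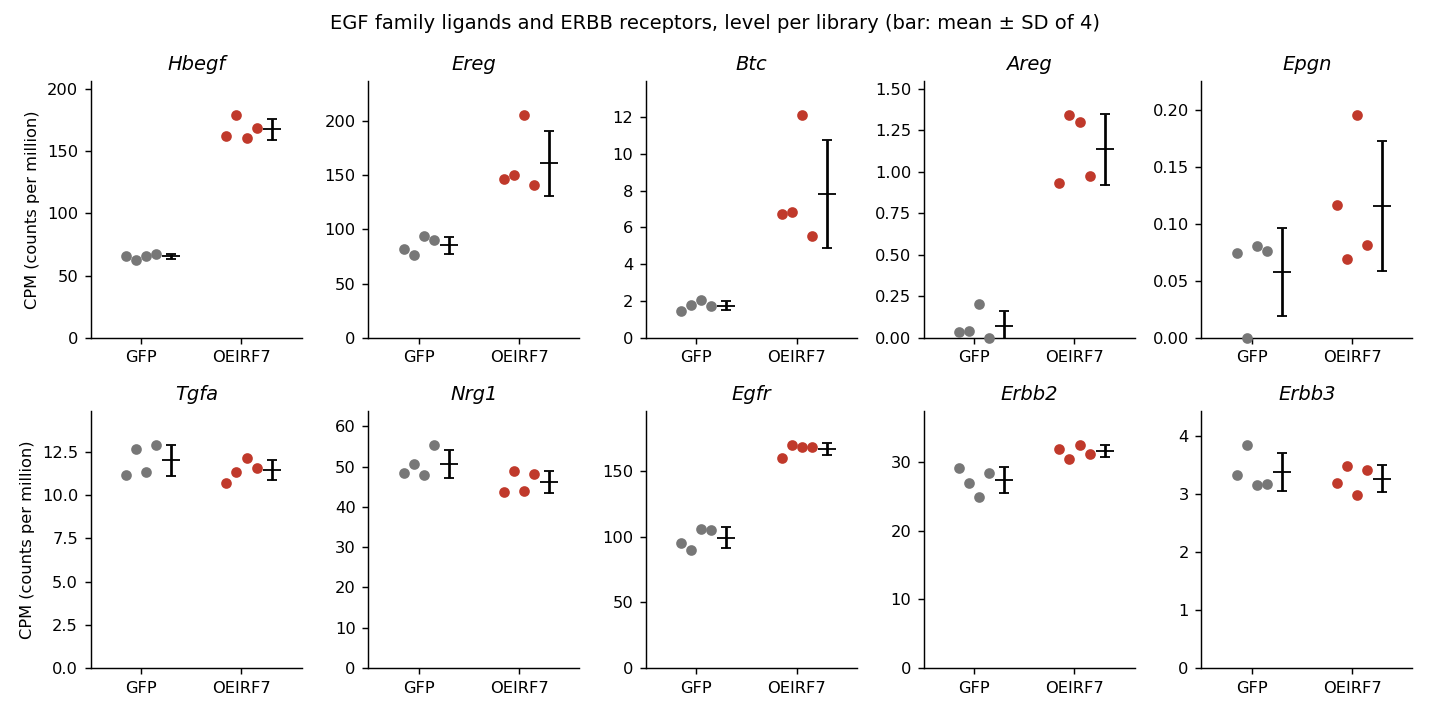
CPM of each of the 10 genes (y axis, counts scaled to library size, from 0) in the 4 libraries labelled GFP (grey) and the 4 labelled OEIRF7 (red), with the mean ± SD as a bar. Hbegf, Ereg, Btc, Areg, Egfr and Erbb2 do not overlap between the groups, while Epgn, Tgfa, Nrg1 and Erbb3 do, and OEIRF7 replicate 3 stands above the rest for Ereg and Btc.

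Among the ligands, HB-EGF had the highest level per length in both groups. Hbegf (ENSMUSG00000024486, GRCm38 chr18:36504927-36515805, minus strand) encodes a heparin-binding ligand of EGFR and ErbB4, whose precursor is also the receptor for diphtheria toxin in humans. Its levels were 66.0, 62.2, 65.7 and 67.6 CPM (counts scaled to library size) in the GFP libraries and 162, 180, 161 and 168 CPM in the OEIRF7 libraries. Every OEIRF7 library was thus far above every GFP library, and both groups were tight. The means were 65.4 ± 2.27 CPM and 168 ± 8.48 CPM (SD, n = 4 each). The log2 fold change was 1.36 (SE 0.043, 95% interval 1.27 to 1.45, adjusted p = 7.131e-12), a 2.57-fold difference. The exact two-sided permutation test over libraries gave p = 0.029, the smallest that 4 against 4 allows, for this gene and for each of the other 5 called members. Among these Areg had to differ to be tested, so its p gives no support.

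Epiregulin, a ligand of EGFR and ErbB4, was the next most abundant ligand. Ereg (ENSMUSG00000029377, chr5:91074622-91093646, plus strand) was at 81.7, 76.3, 93.7 and 89.9 CPM in GFP and at 146, 150, 206 and 141 CPM in OEIRF7. The groups did not overlap, and OEIRF7 replicate 3 was 1.41 times the mean of the other 3. The means were 85.4 ± 7.86 and 161 ± 30.4 CPM (SD, n = 4 each), and the log2 fold change was 0.91 (SE 0.10, 95% interval 0.70 to 1.13, adjusted p = 2.172e-06). Without that library the log2 fold change was 0.77. The gene overlaps the annotated antisense transcript Gm19610, and since the strand setting of the counting is not stated, reads of the overlap cannot be assigned.

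Betacellulin, which binds EGFR and ErbB4, was low in both groups. Btc (ENSMUSG00000082361, chr5:91357261-91402994, minus strand) was at 1.46, 1.76, 2.03 and 1.72 CPM in GFP and at 6.75, 6.83, 12.1 and 5.52 CPM in OEIRF7. Again the groups were apart and OEIRF7 replicate 3 was the highest, at 1.91 times the mean of the other 3. The log2 fold change was 2.16 (SE 0.23, 95% interval 1.66 to 2.66, adjusted p = 1.582e-06), a 4.48-fold difference. Without OEIRF7 replicate 3 it was 1.87.

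Amphiregulin, an EGFR ligand, was close to absent in GFP. Areg (ENSMUSG00000029378, chr5:91139599-91148432, plus strand) had 1, 1, 5 and 0 counts in the GFP libraries and 24, 39, 33 and 24 in the OEIRF7 libraries. Hence 7 counts stood against 120, a ratio of 16.8 after scaling (95% exact interval 7.89 to 42.6, counting error only). The fitted log2 fold change was 3.97 (SE 0.50, 95% interval 2.90 to 5.04, adjusted p = 7.828e-06), with a mean of 1.14 ± 0.21 CPM (SD, n = 4) in OEIRF7. Because Areg passed the filter only through OEIRF7, it had to differ to be tested, and its p-values give no support. GFP replicate 3 held 5 of the 7 counts, and without it the log2 fold change was 5.23. The level of this gene, whose window above held the CRE, stayed below that of Btc in OEIRF7 in FPKM, as given below, although its fold was larger.

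Epigen, another EGFR ligand, was near the detection limit throughout. Epgn (ENSMUSG00000035020, chr5:91027464-91035215, plus strand) had 2, 0, 2 and 2 counts in GFP and 3, 2, 5 and 2 in OEIRF7, and did not pass the filter. The ratio of 12 to 6 counts was 1.96 after scaling, with a 95% exact interval of 0.68 to 6.35, so that a difference was not detectable at this depth. The 0 counts of GFP replicate 2 allow up to 3.

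TGF-α, an EGFR ligand despite its name and unrelated to the TGF-β given to the cells, was not called. Tgfa (ENSMUSG00000029999, chr6:86195223-86275719, plus strand) was at 11.2, 12.7, 11.3 and 12.9 CPM in GFP and at 10.7, 11.3, 12.2 and 11.6 CPM in OEIRF7. The groups overlapped, and the log2 difference was -0.070 (SE 0.076, 95% interval -0.23 to 0.093, adjusted p = 0.4485). This interval lies below that of every called ligand. Tgfa overlaps Gm43917 on the opposite strand, and reads of the overlap cannot be assigned.

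Neuregulin, the ligand of ErbB3 and ErbB4, was the most abundant member without a call. Nrg1 (ENSMUSG00000062991, chr8:31814551-32884029, minus strand) was at 48.4, 50.7, 47.9 and 55.4 CPM in GFP and at 43.7, 48.9, 44.0 and 48.3 CPM in OEIRF7. The groups overlapped, with a log2 difference of -0.13 (SE 0.055, 95% interval -0.25 to -0.012), p = 0.03294, adjusted p = 0.0551, and an exact permutation p of 0.14. The call depended on single libraries: the adjusted p was 0.046 without GFP replicate 1, 0.0401 without GFP replicate 3, 0.0336 without OEIRF7 replicate 2 and 0.0469 without OEIRF7 replicate 4. With the replicate number as a block it was 0.0169 at a log2 difference of -0.13. Nrg1 overlaps Gm26578 and Gm22140 on the opposite strand, and reads of these overlaps cannot be assigned.

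Among the 3 receptors, EGFR had the largest difference. Egfr (ENSMUSG00000020122, chr11:16752203-16918158, plus strand) was at 94.98, 90.3, 106 and 105.5 CPM in GFP and at 160, 170, 168 and 169 CPM in OEIRF7. The groups were apart, with means of 99.2 ± 7.88 and 167 ± 4.37 CPM (SD, n = 4 each). The log2 fold change was 0.75 (SE 0.049, 95% interval 0.64 to 0.86, adjusted p = 8.637e-09), a 1.68-fold difference. Egfr overlaps the annotated antisense gene Egfros, so reads of the overlap cannot be assigned.

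ErbB2, the partner without a ligand, was higher by a small margin. Erbb2 (ENSMUSG00000062312, chr11:98412470-98437716, plus strand), whose window above held the interferon regulatory factor core, was at 29.2, 27.0, 24.9 and 28.3 CPM in GFP and at 31.9, 30.5, 32.5 and 31.2 CPM in OEIRF7. The lowest OEIRF7 library lay just above the highest GFP library. The log2 fold change was 0.20 (SE 0.056, 95% interval 0.085 to 0.32, adjusted p = 0.005578). Its locus overlaps Mien1 on the opposite strand, and reads of the overlap cannot be assigned.

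ErbB3, a receptor of neuregulin, was low and was not called. Erbb3 (ENSMUSG00000018166, chr10:128567523-128589652, minus strand) was at 3.32, 3.85, 3.16 and 3.17 CPM in GFP and at 3.18, 3.48, 2.98 and 3.41 CPM in OEIRF7. The groups overlapped, with a log2 difference of -0.046 (SE 0.13, 95% interval -0.33 to 0.24, adjusted p = 0.7826). Without GFP replicate 2 the difference was 0.020. Erbb3 overlaps the microRNA gene Mir6917 on the same strand, and reads of the overlap cannot be assigned.

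**Figure D2:**
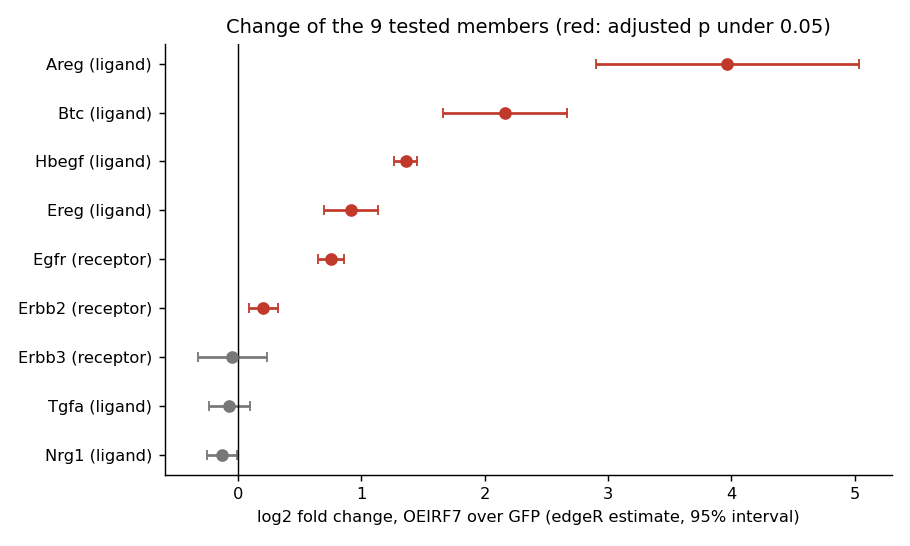
Log2 fold change of OEIRF7 over GFP (x axis) with its 95% interval for the 9 tested genes (y axis), from edgeR; red marks an adjusted p under 0.05. Areg is farthest from 0 and has the widest interval (2.90 to 5.04), Hbegf has a narrow one (1.27 to 1.45), the intervals of Erbb3 and Tgfa span 0, and that of Nrg1 ends at -0.012. Areg passed the filter only through OEIRF7 and so had to differ.

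FPKM values, which correct for gene length, gave the order of the members within each group. In GFP it ran from Hbegf (27.3 ± 0.91 FPKM, SD, n = 4, also below) through Ereg (20.5 ± 1.88), Nrg1 (16.0 ± 1.10), Egfr (12.7 ± 1.20), Erbb2 (5.402 ± 0.36) and Tgfa (2.63 ± 0.19) to Btc (0.60 ± 0.082), Erbb3 (0.56 ± 0.052), Areg and Epgn. The libraries of Btc and Erbb3 overlapped, as did those of Areg and Epgn, and no other neighbours in this order overlapped. In OEIRF7 it ran from Hbegf (71.3 ± 3.80 FPKM) through Ereg (39.3 ± 7.21), Egfr (20.8 ± 0.995), Nrg1 (15.3 ± 0.98), Erbb2 (6.35 ± 0.16), Btc (2.73 ± 1.02), Tgfa (2.55 ± 0.12), Areg (0.95 ± 0.17) and Erbb3 (0.55 ± 0.039) to Epgn (0.068 ± 0.031), and here only Btc and Tgfa overlapped. Egfr and Nrg1 had changed places. Egfr in GFP lay between 11.5 and 14.1 FPKM, below the 14.6 to 17.2 FPKM of Nrg1, and in OEIRF7 between 19.5 and 21.6 FPKM, above the 14.5 to 16.7 FPKM of Nrg1. The ratio of Egfr to Erbb2 in FPKM was 2.37 ± 0.35 in GFP and 3.28 ± 0.23 in OEIRF7, and the libraries did not overlap.

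The 6 EGFR ligands together summed to 50.1, 47.7, 53.4 and 53.1 FPKM in GFP and to 111, 119.5, 126 and 111 FPKM in OEIRF7. The mean log2 sum was 5.67 ± 0.077 in GFP and 6.87 ± 0.089 in OEIRF7 (SD, n = 4 each), a difference of 1.19 that is given as a description. Nearly all of the sum was Hbegf and Ereg in every library. The mean share of Hbegf was 53.4% in GFP and 61.2% in OEIRF7, and that of Ereg was 40.0% and 33.5%. Tgfa made up 5.16% of the GFP sum and 2.18% of the OEIRF7 sum, at FPKM levels that overlapped between the groups. The share of Btc was 1.17% and 2.31%, and that of Areg 0.11% and 0.80%, so the ligands with the largest folds contributed little to the sum. Among the OEIRF7 libraries replicate 3 stood apart in its mix, with an FPKM ratio of Hbegf to Ereg of 1.36. This lay within the 1.22 to 1.42 of the GFP libraries and below the 1.93 to 2.08 of the other 3 OEIRF7 libraries. GFP replicate 3 had the lowest ratio in GFP, 1.22.

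**Figure D3:**
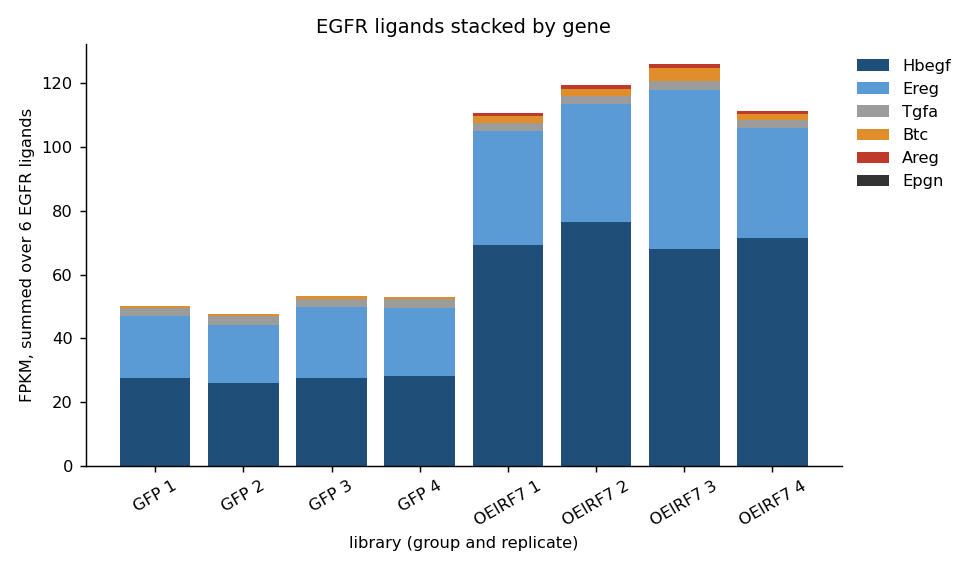
FPKM of 6 EGFR ligands stacked per library (x axis: group and replicate; y axis: summed FPKM, from 0). The OEIRF7 sums lie between 111 and 126 FPKM and the GFP sums between 47.7 and 53.4 FPKM, and Hbegf and Ereg fill most of every bar.

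Epgn, Ereg, Areg and Btc are the only genes of the table between the outer ends of Epgn and Btc, an interval of 376 kb (chr5:91027464-91402994). Ereg and Btc were called higher in OEIRF7, at log2 fold changes of 0.91 and 2.16, as was Areg, at 3.97, which had to differ to be tested. Within 500 kb on either side 8 further genes were tested, of which 6 were called higher (29.0% of all tested genes were), 1 lower, Rassf6 (29.9% of all), and 1, Mthfd2l, was not called. The largest differences among these neighbours belonged to neutrophil-attracting chemokines, with log2 fold changes of 4.49 (Cxcl3), 3.21 (Cxcl1), 2.86 (Cxcl2) and 2.05 (Cxcl5). Cxcl2 and Cxcl3, like Areg, passed the filter only through OEIRF7, and of the other 6 neighbours 4 were higher and 1 lower. OEIRF7 replicate 3 was the highest OEIRF7 library for Epgn, Ereg and Btc in the interval, for these 4 chemokines and for Mthfd2l, that is for 5 of the 8 neighbours. Over all tested genes it was the highest of the 4 in 28.6%. Areg was highest in OEIRF7 replicate 2, at 1.34 CPM, with replicate 3 at 1.30 CPM. GFP replicate 3 was in turn the highest GFP library for Ereg, Areg, Btc, Cxcl3 and Cxcl5, but not for Cxcl1, Cxcl2 or Mthfd2l. The share over all tested genes was not taken for the GFP libraries. The neighbours were chosen for their position after the members' values were seen.

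**Figure D4:**
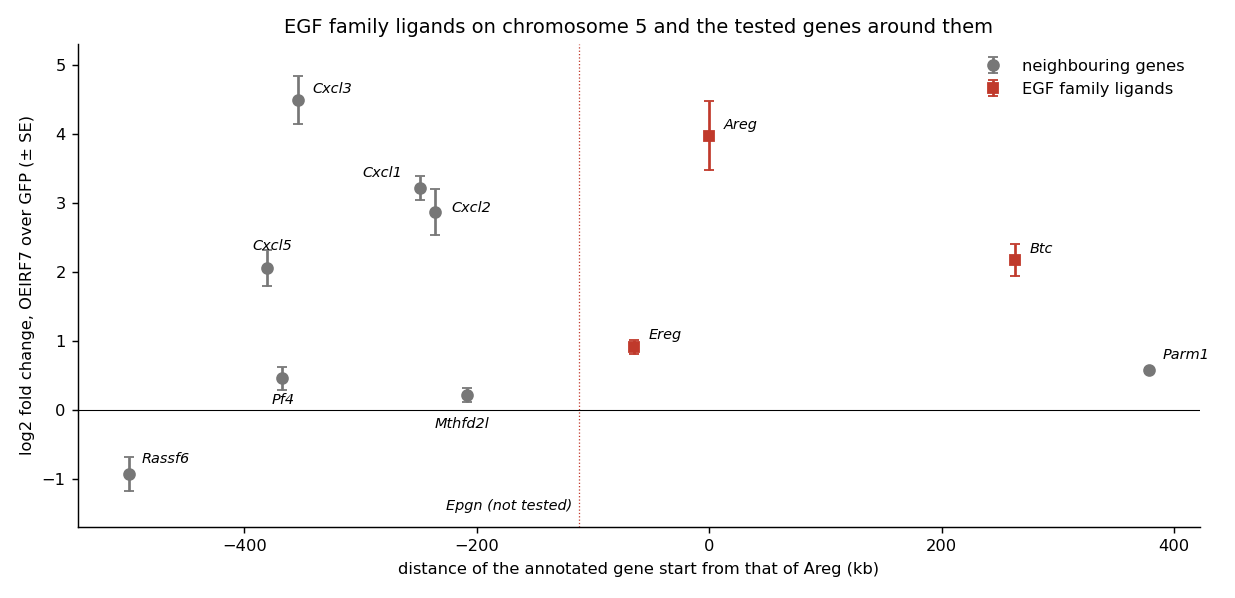
Log2 fold change ± SE (y axis) against the distance of each gene's annotated start from that of Areg (x axis, kb) for EGF family ligands (red squares) and the 8 tested neighbours within 500 kb (grey circles); the dotted line marks Epgn, which was not tested. Cxcl3, at 4.49, and Areg, at 3.97, are the highest points, and Rassf6 is the one gene below 0.

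Genes whose levels tracked the 3 largest changes most closely were named by Pearson's r of log2 CPM over the 8 libraries, in which the difference between the groups itself makes most of r. For Areg these were Cep295nl (r = 0.995), Sc5d (0.994) and the cytokine gene Il11 (0.993). For Btc they were the heat shock gene Dnajb1 (0.997), Sar1a (0.997) and Kdm7a (0.996). For Hbegf they were Tbc1d1 (0.999), Tmeff1 (0.999) and Chst11 (0.998).

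The rest of the ligand and receptor family was scarce. Of Egf, Nrg2, Nrg3, Nrg4 and Erbb4 only 3 passed the filter, all 5 stayed under 1 FPKM in every library, and 1 was lower (29.9% of all tested genes were), none higher and 2 not called, with a median log2 fold change of -0.51. Erbb4, the other neuregulin receptor, was at 4.37, 5.65, 4.21 and 4.46 CPM in GFP and at 1.86, 2.45, 2.98 and 2.56 CPM in OEIRF7, without overlap. Its log2 fold change was -0.92 (SE 0.16, adjusted p = 0.000158). Nrg4 differed by 0.73 (SE 0.40, adjusted p = 0.1292) and its groups overlapped.

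Genes that free ligands from the membrane were tested in full. Of 10 genes, 6 were higher in OEIRF7 (29.0% of all tested genes were), 3 lower (29.9% of all) and 1 not called, with a median log2 fold change of 0.39 beside 0.0015 over all tested genes. Rhbdf2, whose product iRhom2 escorts ADAM17 to the cell surface, was at 24.8 to 29.5 CPM in GFP and at 51.3 to 60.8 CPM in OEIRF7, a log2 fold change of 1.08 (SE 0.063, adjusted p = 2.606e-09). Its relative Rhbdf1 was among the lower genes (-0.38), as were the proteases Adam17 itself (-0.14) and Adam9 (-0.14). Adam12, Frmd8, Adam19, Adam8 and Adam15 were the other higher genes, with log2 fold changes of 0.29 to 0.85.

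Genes that restrain the receptors or govern their turnover included Errfi1 and Lrig1, both higher by more than 2-fold. Of 14 genes 13 were tested, of which 9 were higher (29.0% of all tested genes were), 2 lower (29.9% of all) and 2 not called, with a median log2 fold change of 0.24. Errfi1, whose product MIG6 binds and blocks the EGFR kinase, was at 33.3 to 38.5 CPM in GFP and at 84.7 to 102 CPM in OEIRF7, a log2 fold change of 1.38 (SE 0.062, adjusted p = 1.679e-10). Lrig1, a membrane protein that promotes loss of ERBB receptors, was at 59.4 to 63.4 CPM in GFP and at 117 to 134 CPM in OEIRF7, a log2 fold change of 1.01 (SE 0.044, adjusted p = 1.31e-10). The ubiquitin ligase genes Cblb (0.68) and Cbl (0.22) were higher, and the deubiquitinase gene Usp8 was lower (-0.75).

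Adaptors and kinases below the receptors held calls in either direction, Nras among the lower genes. Of 21 genes, 6 were higher, beside 29.0% of all tested genes, 9 were lower, beside 29.9%, and 6 were not called, with a median log2 fold change of -0.0006. Nras, a RAS GTPase gene, was at 129 to 140 CPM in GFP and at 63.9 to 70.6 CPM in OEIRF7, a log2 fold change of -1.001 (SE 0.040, adjusted p = 5.726e-11). Braf (-0.76) fell and the MAPK kinase gene Map2k1 (0.69) rose, while the adaptor gene Grb2 differed by 0.025 with overlapping groups.

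Genes that commonly follow MAPK activity held calls in either direction too, Etv4 among the higher genes. Of 10, 4 were higher, beside 29.0% of all tested genes, 3 were lower, beside 29.9%, and 3 were not called, with a median log2 fold change of 0.12. Etv4, an ETS transcription factor gene, was at 7.13 to 8.39 CPM in GFP and at 17.1 to 21.2 CPM in OEIRF7, a log2 fold change of 1.29 (SE 0.088, adjusted p = 1.329e-08). Dusp4 (0.47), Phlda1 (0.55) and Epha2 (0.17) were the other higher genes, and Epha4 (-0.52), Ccnd1 (-0.47) and Spry2 (-0.19) were lower. Dusp6 (0.076), Spry4 (0.17) and Etv5 (0.0095) were not called.

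**Figure D5:**
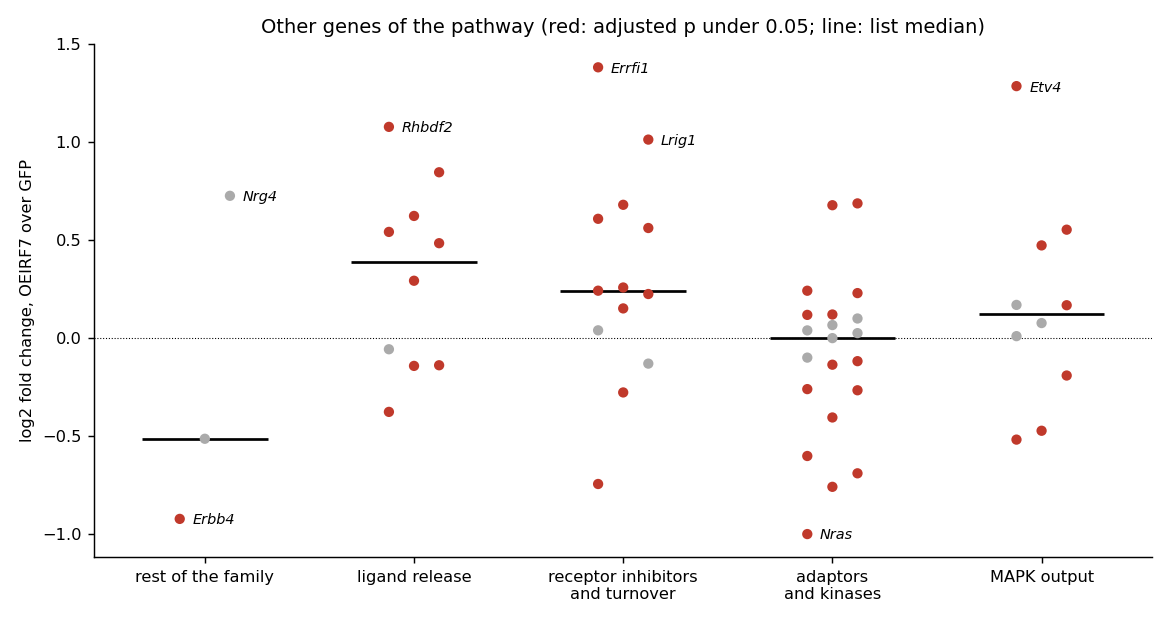
Log2 fold change of OEIRF7 over GFP (y axis) for the tested genes of 5 lists (x axis), red for an adjusted p under 0.05 and grey otherwise, with each list's median as a line. The medians run from -0.51 (rest of the family, 3 genes) through -0.0006 (adaptors and kinases) and 0.12 (MAPK output) to 0.39 (ligand release).

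Markers of other cell types were read beside these results. The counts of markers below stand beside 29.0% higher and 29.9% lower over all tested genes. Of 7 epithelial markers 3 were tested, with 2 higher, Cldn4 at 2.70 and Cdh1 at 1.84 on the log2 scale, and Krt18 not called. Cdh1, with 0 GFP and 4 OEIRF7 libraries over the filter's line of 0.393 CPM, passed only through OEIRF7 and so had to differ. The mesothelial marker Wt1 also passed only through OEIRF7, with 2 GFP libraries over that line, and was not called. The summed epithelial level was 0.72 to 0.94 FPKM in GFP and 1.96 to 3.34 FPKM in OEIRF7, 6 of the 7 stayed under 1 FPKM in every library, and Epcam had at most 8 counts. Mesothelial markers split, with 2 of 6 higher (Krt19, 1.96, and Msln, 0.19), 2 lower (Upk3b, -1.32, and Lrrn4, -0.70) and 2 not called, and summed to 48.2 to 50.3 FPKM in GFP and 39.8 to 47.2 FPKM in OEIRF7. OEIRF7 replicate 3, the highest library for Btc and Ereg, was also the highest OEIRF7 library for Cldn4 (4.91 CPM), Krt19 (25.5 CPM) and Lrrn4 (53.4 CPM). It was the lowest OEIRF7 library for Krt18 (0.35 CPM), Upk3b (17.9 CPM) and Upk1b (12.6 CPM). For Cdh1, Msln and Wt1 other OEIRF7 libraries were the highest. Over all tested genes replicate 3 was the highest OEIRF7 library in 28.6%. GFP replicate 3 was the highest GFP library for Krt19 (6.24 CPM) and the lowest for Upk3b (45.0 CPM). It was not the highest for Cldn4 or Lrrn4, nor the lowest for Krt18 or Upk1b. Macrophage markers summed to 191 to 224 FPKM in GFP and 231 to 265 FPKM in OEIRF7, with 3 of 6 higher and none lower, at log2 fold changes of 0.21 to 0.44. Endothelial markers summed to 70.9 to 74.8 and 73.8 to 80.6 FPKM, with 2 of 6 higher and 1 lower. Of 5 mural markers 4 were tested, with 2 higher and 1 lower, and they summed to 248 to 271 FPKM in GFP and 235 to 262 FPKM in OEIRF7. Nearly all of that sum was Pdgfrb, the lower gene (log2 fold change -0.16), with means of 259 FPKM in GFP and 237 FPKM in OEIRF7. The higher genes were Cspg4, 2.83-fold, and Rgs5, 1.66-fold, both without overlap between the groups. Cspg4 was at 19.7 to 23.7 CPM in GFP and at 57.8 to 73.7 CPM in OEIRF7. Schwann cell markers summed to 10.3 to 13.0 and 11.1 to 12.8 FPKM, with none of 4 tested called. Cardiomyocyte markers summed to 8.78 to 12.2 and 7.03 to 9.22 FPKM, nearly all of it Tnnt2, which was lower, with Myh6 at or near 0 in every library. The part of these cell types in the values of the EGF family was not tested.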

How the data were processed

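The table compares 4 libraries labelled GFP with 4 labelled OEIRF7. Per the methods, the authors trimmed reads with Trimmomatic, mapped them to GRCm38 with HISAT2 and obtained a count for every gene from HTSeq-count. The authors deposited the counts unnormalised, and beside them FPKM that Cufflinks had computed, with 2 decimals. Versions and the strand setting are not given in the sources used here. Extraction and library kits are named differently in the labels and in the paper, and the deposited text names an adeno-associated virus where the paper names adenovirus. The authors' own columns of group means, fold changes, p-values and FDR were not used. In 121 symbols the letters nc had been replaced by GFP, and these were restored by Ensembl identifier. Positions are from GENCODE M21 (GRCm38).

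The counts went through edgeR 4.0.16 (R 4.3.3): filterByExpr with the groups (13533 genes kept), TMM scaling (factors 0.989 to 1.01), glmQLFit and glmQLFTest without covariates, and Benjamini-Hochberg adjustment over the tested genes. SE is the log2 fold change over the root of F. CPM use TMM library sizes, and log2 CPM a prior count of 2. Exact two-sided permutation tests used log2 CPM. The ratio for rare genes is a conditional binomial interval at 95%. Alternatives were DESeq2 1.42.0, other scaling and filters, a replicate block, leaving out each library, and limma 3.58.1 on log2 FPKM with a pseudocount of 1 or 0.1, keeping mean levels over 0.1 FPKM. A test planned for the summed FPKM was not used. The tests were tested on simulated data. Named beside the members are genes of the 5 pathway lists past 2-fold (the 2 largest where a list had none), Irf7 and the 3 genes most alike; other names illustrate a count, picked with their values in view. The members and lists were chosen with earlier results of these data known.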

Additional observations from a re-analysis of the deposited data

Results flagged for a closer look

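Of 38 sets of 4 values examined, 2 had a value whose gap to its nearest neighbour took more of the range than Dixon's 95% critical value allows, and chance flags about 1 in 20. For Ereg in OEIRF7 the gap made up 0.857 of the range, with replicate 3 at 206 CPM and the next library at 150 CPM. For Epgn in GFP it made up 0.921 of the range, with replicate 2 at 0 counts and the other 3 libraries at 2 counts each.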

How the results depend on the processing

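Under 16 alternatives, the 9 tested members gave 143 log2 fold changes, of which 137 kept their direction and side of the threshold, 5 crossed it and 1 reversed. The 5 were all Nrg1, so that 1 member was called lower with the replicate block (adjusted p = 0.0169), and 0 to 1 when a library was left out. The replicate block changed no other member's call. The reversal was Erbb3, which ranged over -0.081 to 0.020 when a library was left out and was above 0 only without GFP replicate 2 (adjusted p = 0.916). The causes were not tested. Same-numbered libraries deviated together only weakly (r of 0.079, 0.095, 0.14 and 0.10), but each did so best with its own number. The main fit did not pair them, and the sources do not state whether the numbers mark pairs. With the replicate block the SE was 0.057 for Ereg, beside 0.10, and 0.15 for Btc, beside 0.23. The block fit called 8211 genes, beside 7969 in the main fit. Areg ranged over 3.56 to 5.23, Btc over 1.87 to 2.30, Ereg over 0.77 to 0.97 and Hbegf over 1.33 to 1.39 across the count-based fits. On the compressed scales of log2(FPKM + 1) and log2(FPKM + 0.1), limma gave 0.88 and 2.82 for Areg and 1.19 and 1.96 for Btc. Areg had no value with at least 10 counts in every library. The difference of the summed ligand level was 1.08 with CPM in place of FPKM. Counts over the pathway lists changed in 37 of 192 cases, by at most 3 genes, and by over 1.5 times in 1, the rest of the family with 2 lower genes at a minimum of 1 count in total. Counts limit Areg and Epgn, and single libraries or the replicate block decide the call of Nrg1.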
